A study of Homo sapiens with 66 samples.

Results

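Disruption of HNRNPC alone was examined in whole-cell RNA of THP-1 cells 4 days after nucleofection, in 3 libraries with hnRNPC gRNA and 3 libraries with nontarget gRNA, which are 6 of the 66 libraries of the series. The members were chosen by their labels: day 4, whole cell, medium, and either hnRNPC or NC1 as the first gRNA. The series used RNA sequencing to compare hnRNPC, ADAR and GFP gRNA and interferon alpha treatment, in total, cytosolic or nuclear-enriched RNA, and counted reads in genes, in introns and in editing-cluster-rich regions (ECRs). The control libraries (CTRL_CTRL_D4) received the nontarget gRNA NC1 in both gRNA positions, and the hnRNPC libraries (hnRNPC_CTRL_D4) received hnRNPC gRNA in the first position and NC1 in the second. THP-1 is a human monocytic leukemia line, and the cells of both groups came from the same STING-deficient clone that carries a Cas9 transgene. All cells were kept in medium without interferon. RNA came from pools of nucleofected cells, so that fewer cells of a type and less RNA per cell cannot be told apart in these values. The study describes the triplicates as independent experiments.

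hnRNPC is an abundant nuclear protein that binds runs of uridine in nascent transcripts. Alu elements are short repeats of which very many copies lie in human introns, and a copy inserted in the antisense direction gives the transcript a U-rich tract that resembles the signal ahead of a 3′ splice site. hnRNPC is known to compete with the splicing factor U2AF2 for such tracts and so to keep pieces of antisense Alu elements from being spliced in as exons. Alu copies of opposite orientation in the same RNA can pair into double-stranded RNA, which ADAR edits from adenosine to inosine, and clusters of edited sites therefore mark Alu-rich RNA.

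The gRNA is shown to place the cut, with the neighbouring PAM bases of the GRCh37 genome in capitals. It matched the plus strand at chr14:21702284-21702303, inside a coding exon of HNRNPC, which is transcribed from the minus strand (chr14:21677295-21737653). The same 20 bases also matched at chr2:190788111-190788130 on the minus strand, inside the processed copy HNRNPCP2 within C2orf88. The gRNA used in the wild-type clone of the second study, which is compared further on, cuts 111 bases away and is shown for contrast.
hnRNPC gRNA, STING-deficient clone: gagattcccaatgaatacacGGG
hnRNPC gRNA, wild-type clone: ctcattaacatactgaacgaAGG

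HNRNPC itself was measured at 725, 796 and 817 CPM (reads of the gene relative to all gene reads of the library, scaled by TMM factors) in the control replicates 1 to 3 and at 336, 343 and 355 CPM in the hnRNPC replicates. The groups did not overlap, and the level fell from 779 ± 48.2 to 345 ± 9.49 CPM (mean ± SD, n = 3), a log2 fold change of -1.18 (SE 0.0584, adjusted p = 9.74e-19 by the quasi-likelihood test of edgeR, Benjamini-Hochberg adjusted). Transcripts with a small deletion or insertion still count as HNRNPC reads, so the level is not a measure of the share of disrupted alleles. RALY, a close relative of hnRNPC that also binds U-rich RNA, had a log2 fold change of 0.07 (SE 0.0553).

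Gene counts summed to between 108028880 and 152829008 per library, and intron counts came to 18.5% to 23.6% of the gene counts in the controls and 21.1% to 26.3% in the hnRNPC libraries. Replicate 1 held the largest share of intron counts in both groups. The 10 monocytic line markers summed to 508 to 547 CPM in the controls and 512 to 579 CPM in the hnRNPC libraries, with 9 tested, LYZ at 0.05 and TYROBP at 0.33 on the log2 fold change scale among them, and none called. Erythroid and megakaryocyte markers summed to at most 0.0476 CPM with 3 of 6 at 0, and epithelial and fibroblast markers to at most 0.184 CPM with 4 of 8 at 0.

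Of 13193 genes tested on day 4, 210 were called higher (1.59%) and 215 lower (1.63%) with hnRNPC gRNA, where a call needs a log2 fold change of at least 1 in size and an adjusted p of at most 0.05. In 210 of the higher and 214 of the lower genes the 3 hnRNPC libraries did not overlap the 3 controls, which a call makes likely. The libraries also did not overlap in 6015 of the 10493 genes not called with at least 5 CPM in the higher group. The median log2 fold change was 1.25 among the higher and -1.20 among the lower genes, against -0.02 over all genes tested. The higher genes were expressed at a median of 4.23 CPM in the hnRNPC libraries and the lower genes at a median of 17.9 CPM in the controls. GFP gRNA, another control of the study, gave 0 called genes against the same controls (0%) by edgeR, 0 by limma-voom and 1 by DESeq2, with 908 genes at an unadjusted p under 0.05 in edgeR.

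**Figure D1:**
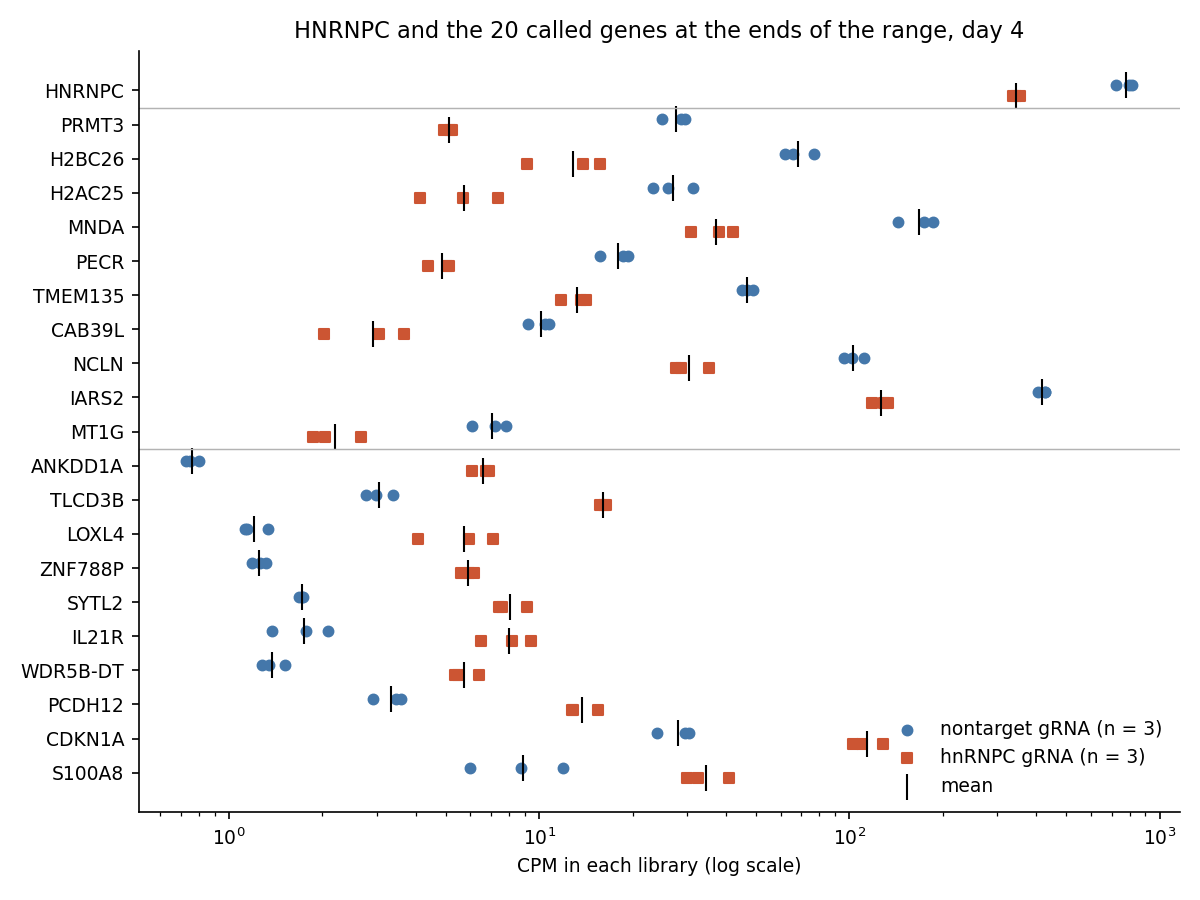
CPM on a log axis of the 10 highest and 10 lowest named genes and of HNRNPC in each of the 6 libraries of day 4, with 1 point per library and 1 colour per group. The rule that chose the highest and lowest genes required the 3 hnRNPC points to lie apart from the 3 control points. For HNRNPC, which the rule did not choose, they lie apart as well.

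ANKDD1A, which encodes a protein with ankyrin repeats and a death domain (chr15:65204101-65251033, plus strand), rose the most among the named genes. It was at 0.727, 0.749 and 0.802 CPM in the controls and at 6.73, 6.09 and 6.88 CPM in the hnRNPC libraries, an 8.63-fold rise with a log2 fold change of 3.11 (SE 0.199). TLCD3B, a member of the ceramide synthase family, went from 3.38, 2.77 and 2.97 to 15.7, 16.4 and 16.1 CPM (log2 fold change 2.41, SE 0.131), and its single tested intron rose by 2.02 on the log2 scale. The spread within a group was small beside both differences. LOXL4, a lysyl oxidase-like enzyme of the extracellular matrix, had a log2 fold change of 2.25, SYTL2, an effector of Rab27 in vesicle transport, of 2.23, the pseudogene ZNF788P of 2.23 and the long noncoding RNA WDR5B-DT of 2.05.

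IL21R, CDKN1A, S100A8 and PCDH12 completed the 10 highest. IL21R, the receptor of interleukin 21, was at 1.78, 1.38 and 2.08 CPM in the controls and 6.48, 8.14 and 9.43 CPM with hnRNPC gRNA (log2 fold change 2.20, SE 0.185). CDKN1A, the cyclin-dependent kinase inhibitor p21, was at 30.5, 23.99 and 29.5 CPM against 103, 110 and 128 CPM (2.02, SE 0.202), and its single tested intron rose by 2.41. S100A8, a subunit of the calcium-binding protein calprotectin of myeloid cells, was at 5.96, 8.71 and 11.9 CPM against 29.99, 32.5 and 41.0 CPM (1.96, SE 0.270). The lowest hnRNPC library was above the highest control in each of these genes, as the rule that named them required. PCDH12, a protocadherin, had a log2 fold change of 2.04.

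Among the lower genes, PRMT3, an arginine methyltransferase that acts on a ribosomal protein (chr11:20409104-20530884, plus strand), fell the most. It was at 24.8, 29.4 and 28.6 CPM in the controls and 5.14, 4.92 and 5.24 CPM in the hnRNPC libraries, a log2 fold change of -2.44 (SE 0.0816). The neighbouring histone genes H2BC26 and H2AC25, which lie head to head on chromosome 1, had log2 fold changes of -2.40 (SE 0.141) and -2.23 (SE 0.257), with H2BC26 at 77.2, 61.8 and 65.7 CPM against 9.11, 13.9 and 15.7 CPM. MNDA, a nuclear antigen of myeloid cells, went from 143, 174 and 185 to 30.8, 38.1 and 42.2 CPM (-2.18, SE 0.143). Control and hnRNPC libraries were again apart in all of these genes, as the same rule required.

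Of the other lowest genes IARS2, the mitochondrial isoleucyl-tRNA synthetase, was the most abundant, at 404, 426 and 428 CPM in the controls and 118, 133 and 129 CPM with hnRNPC gRNA (log2 fold change -1.73, SE 0.0627). Of its 5 tested introns, 1 rose by 1.86 and 2 fell. PECR, a peroxisomal reductase of fatty acid chain elongation, had a log2 fold change of -1.89, TMEM135, a membrane protein of peroxisomes and mitochondria, of -1.83, CAB39L of -1.80, NCLN, which encodes the membrane protein nicalin, of -1.76, and the metallothionein MT1G of -1.68. NCLN also had 1 higher intron, at 1.01.

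Protein-coding genes made up 146 of the higher and 194 of the lower genes, 1.27% and 1.69% of the 11458 tested. Long noncoding RNAs were called higher in 43 and lower in 8 of 848 cases, which is 5.07% and 0.943%. Exon reads cannot be told from intron reads where an annotated noncoding RNA overlaps an intron on the same strand. The strand setting of the counting is not given in the sources used here, so this may hold for the opposite strand too.

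The genes that fell also differed from the others in base composition, a feature looked at after the values of day 5 were seen. The median GC content of the transcript was 47.6% over all genes, 47.6% over the higher and 51.5% over the lower genes. Genes with a GC content of 60% or more made up 12.7% of all genes tested, 7.14% of the higher and 27.4% of the lower genes. That class had a median log2 fold change of -0.22 on day 4, beside 0.07 in genes under 40% GC and -0.04 for GFP gRNA in the same class. With a GC offset in the fit, the counts were 227 higher and 161 lower, of which 200 and 156 were also called without it, and the part of GC content in the other calls was not tested.

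Splicing factors were not called. More of them fell than rose, which held for all genes tested as well. None of 14 tested 3′ splice-site factors and hnRNPC relatives was called by edgeR, limma-voom or DESeq2 (1 higher and 5 lower at an unadjusted p under 0.05 by edgeR), while 1 (7.14%) rose and 5 (35.7%) fell at an adjusted p of at most 0.05, beside 23.4% and 28.0% of all genes. At that adjusted p 9.52% of the hnRNP proteins rose and 38.1% fell, and 8.33% of the SR proteins rose and 50% fell. SF1, which binds the branch point, had a log2 fold change of -0.48 and PTBP1, which binds pyrimidine tracts, of -0.51. Of 21 hnRNP proteins none was called by edgeR, limma-voom or DESeq2 (3 higher and 9 lower at that unadjusted p), and HNRNPU at -0.29 and HNRNPK at -0.23 were the most abundant. The 12 SR proteins, which promote exon inclusion, gave no call by any of these tools (2 higher and 6 lower at that p), with SRSF4 at 0.45, SRSF3 at -0.10 and SRSF1 at -0.22. Of 14 nonsense-mediated decay factors none was called by these tools (4 higher and 2 lower at that p), with UPF3B at 0.65, SMG5 at 0.04 and EIF4A3 at -0.10. At an adjusted p of at most 0.05, 28.6% of these factors rose and 14.3% fell, beside 23.4% and 28.0% of all genes. Among 16 transcripts that this decay pathway is known to keep low, ATF3 was called, at 1.54. Of these 16, 31.25% rose and 12.5% fell at that adjusted p.

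Among sensors of double-stranded RNA no gene passed the fold threshold. None of 15 tested genes of this list was called by edgeR, limma-voom or DESeq2 (7 higher and 1 lower at an unadjusted p under 0.05 by edgeR), but 7 rose and 1 fell at an adjusted p of at most 0.05, so that 46.7% rose, beside 23.4% of all genes. EIF2AK2, the kinase PKR, was at 64.6, 73.7 and 70.7 CPM in the controls and 93.4, 104 and 108 CPM in the hnRNPC libraries, which did not overlap (log2 fold change 0.54, SE 0.104). OAS1, which makes 2-5A, had a log2 fold change of 0.53 and the kinase TBK1 of 0.49. TRIM25, a ubiquitin ligase for RIG-I, fell by 0.24. ADAR was at 0.03 (SE 0.0802), IFIH1, the sensor MDA5, at 0.28 (SE 0.102) and RIGI at -0.19 (SE 0.131).

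Interferon genes were almost silent in all 6 libraries. Of 18 interferon and receptor genes 10 were below the filter, 5 of them at 0 counts in every library, and IFNB1 had 1, 7 and 0 counts in the controls and 0, 7 and 3 in the hnRNPC libraries. None of the 8 tested genes was called by edgeR, limma-voom or DESeq2 (6 higher and 1 lower at an unadjusted p under 0.05 by edgeR), with JAK1 at 0.20. Of these 8, 50% rose and 12.5% fell at an adjusted p of at most 0.05, beside 23.4% and 28.0% of all genes. Of 38 interferon-stimulated genes, all tested, 5 were called higher and none lower, with a median log2 fold change of 0.25. At an adjusted p of at most 0.05, 14 (36.8%) rose and 3 (7.89%) fell, beside 23.4% and 28.0% of all genes. The filter of genes took the average over all 48 libraries, those with interferon alpha included. A gene low on day 4 could thus pass through groups where it is high. CXCL11 was tested with 0 counts in every control and 3, 0 and 0 with hnRNPC gRNA. The part of this in the shares was not tested. IFIT2, which binds viral RNA, was at 1.15, 1.12 and 1.38 CPM in the controls and 4.32, 4.61 and 4.95 CPM with hnRNPC gRNA (1.92, SE 0.239). TRIM22, an antiviral ubiquitin ligase, was at 1.99, 1.97 and 2.27 CPM against 6.59, 5.71 and 5.59 CPM (1.52, SE 0.189). ISG20, an exonuclease, had a log2 fold change of 1.04.

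The other called interferon-stimulated genes were low. IFI27 had a log2 fold change of 1.30 (SE 0.511) and OASL of 1.06 (SE 0.349), both under 1 CPM in every library. Limma-voom called neither of them (1.26 and 1.10) nor ISG20, leaving IFIT2 and TRIM22, while DESeq2 called all 5. The call of IFI27 was also lost without any of the controls or without hnRNPC replicate 1 or 2 (adjusted p between 0.0504 and 0.132 in the quasi-likelihood test of edgeR, Benjamini-Hochberg adjusted), and that of OASL without control replicate 2 (0.81) or hnRNPC replicate 3 (0.97). With GFP gRNA as the control, TRIM22 came to 0.88, IFI27 to 0.90 and OASL to 0.49, none of them called. ISG15, a ubiquitin-like modifier, was at -0.20 (SE 0.179), IFIT1 at -0.02 (SE 0.411) and MX1 at 0.31 (SE 0.187), while CXCL10 had at most 9 counts in any library.

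Genes of growth arrest and the p53 response had the largest share of higher genes among lists with more than 10 tested members: 15 of 24 (62.5%) rose and 3 (12.5%) fell at an adjusted p of at most 0.05, beside 23.4% and 28.0% of all genes. CDKN1A was called, and so were 3 others. FAS, a death receptor, was at 2.62, 2.84 and 3.55 CPM in the controls and 11.2, 9.77 and 11.5 CPM with hnRNPC gRNA (log2 fold change 1.85, SE 0.141). BTG2, an antiproliferative gene, had 1.34 (SE 0.164). PHLDA3, an inhibitor of AKT, had 1.05 (SE 0.173) but 0.95 without control replicate 3 and 0.85 with GFP gRNA as the control. MDM2, the ubiquitin ligase of p53, rose by 0.52 and was not called, yet 5 of its introns were, more than in any other gene. GADD45A was at 0.79 and BAX at -0.13.

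Stress and immediate early genes moved in part. In the integrated stress response list, where 33.3% rose and 5.56% fell at an adjusted p of at most 0.05 (23.4% and 28.0% of all genes), 2 of 18 genes were called higher, NUPR1 at 1.73 (SE 0.480) and DDIT3, the transcription factor CHOP, at 1.07 (SE 0.156). The call of DDIT3 was lost without control replicate 1 (0.99) and with GFP gRNA as the control (0.85). Of 15 immediate early factors 33.3% rose and 20% fell at that p. FOSB at 2.05 (SE 0.710), ATF3 at 1.54 (SE 0.250) and EGR1 at 1.17 (SE 0.478) were called higher, and MYC fell from 235, 224 and 228 to 108, 126 and 122 CPM (-0.95, SE 0.0726), short of the threshold. FOSB lost its call without control replicate 2 (1.92) or hnRNPC replicate 2 (1.82), and EGR1 without any single library but hnRNPC replicate 1 (1.03 to 1.20), with GFP gRNA as the control (1.03) and by limma-voom (1.15). Of 13 inflammatory cytokine and NF-kB feedback genes, CCL2, a chemokine for monocytes, was called, at 10, 16 and 13 counts against 76, 46 and 68 counts (2.17, SE 0.437). Of these 13, 46.2% rose and 7.69% fell at an adjusted p of at most 0.05.

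Of 31 monocyte and macrophage genes tested, 4 were called higher and 1 lower, where 1.59% and 1.63% of all genes were. At an adjusted p of at most 0.05, 32.3% rose and 29.0% fell, close to the 23.4% and 28.0% of all genes, and the list's median was 0.06. S100A9, the partner of S100A8, went from 18.5, 22.3 and 29.1 to 68.0, 76.5 and 96.0 CPM (log2 fold change 1.78, SE 0.242; 0.97 and no call with GFP gRNA as the control). ITGAL, an integrin subunit of leukocytes, rose by 1.21. CEBPA, a transcription factor of early myeloid cells, was at 6.25, 5.36 and 8.22 CPM against 2.79, 3.41 and 2.44 CPM (-1.20, SE 0.3002). The granule proteases PRTN3 at -0.95 and ELANE at -0.86 were short of the threshold. CD14, too low to be tested, had 16, 17 and 35 counts in the controls and 96, 178 and 189 in the hnRNPC libraries. Of 34 DNA replication and mitosis genes none was called by edgeR, limma-voom or DESeq2 (7 higher and 8 lower at an unadjusted p under 0.05 by edgeR), with MCM3, a helicase subunit, at -0.97 (SE 0.0475), TOP2A at -0.05 and CENPF at 0.03. Of these 34, 17.6% rose and 23.5% fell at an adjusted p of at most 0.05, beside 23.4% and 28.0% of all genes.

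Among introns that passed the filter, more were called higher than lower. Of 21798 introns tested on day 4, 778 were called higher (3.57%) and 110 lower (0.505%), and the median over all introns was 0.08. The filter took the average over all 48 libraries, so an intron low in the controls could pass through groups where it is high. Without the filter 2820 introns were higher and 972 lower. Of the 19435 introns that lie inside exactly 1 tested gene, 689 were higher (3.55%), in 617 genes: 557 of these genes had 1 higher intron, 50 had 2, 9 had 3, and MDM2 had 5. The 19435 introns lay in 6660 genes, so few were tested per gene, and the number of higher introns that random placement would give per gene was not tested. Without hnRNPC replicate 1, which held the largest share of intron reads, 110 lower introns became 178, and leaving out any single library gave between 620 and 997 higher introns.

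The highest named intron lies in ACTR3, a subunit of the Arp2/3 complex of actin branching (chr2:114685033-114688877, plus strand). It was at 2.59, 2.14 and 2.11 CPM in the controls and 65.6, 34.6 and 36.5 CPM in the hnRNPC libraries, a 19.99-fold rise with a log2 fold change of 4.32 (SE 0.281). The exons of ACTR3 went the other way, from 715, 787 and 783 to 436, 460 and 458 CPM (-0.75, SE 0.0528). An intron of GMPS, which makes guanosine monophosphate (chr3:155621750-155623948, plus strand), was at 1.51, 1.54 and 1.11 CPM against 24.2, 17.8 and 17.4 CPM (3.84, SE 0.203), while its gene was at -0.91 (SE 0.0604). Neither gene passed the threshold of a call. In both the hnRNPC libraries were apart from the controls on exons, and on the intron as the naming rule required.

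In SRP68, BRD8, KDM3B, SNRNP40 and OSBPL8 an intron rose while the exons changed by less than the threshold of a call. An intron of SRP68, of the signal recognition particle (chr17:74042276-74043986, minus strand), had a log2 fold change of 3.98 beside 0.25 for its gene. An intron of BRD8, a bromodomain protein (chr5:137507824-137513259, minus strand), had 3.67 beside 0.54, and an intron of KDM3B, a histone demethylase (chr5:137708531-137710781, plus strand), 3.67 beside -0.43. An intron of SNRNP40, a component of the U5 spliceosomal particle (chr1:31732969-31734375, minus strand), was at 2.02, 1.90 and 1.88 CPM against 23.98, 22.99 and 24.96 CPM (3.63, SE 0.134), with its exons at -0.0034 (SE 0.0561). An intron of OSBPL8, an oxysterol-binding protein (chr12:76844769-76853638, minus strand), had 3.504 beside 0.32. The interval chr1:1654271-1655696 in CDK11A, a gene called higher at 1.55, had 4.02, but the gene has a near-identical neighbour and a read-through model, so reads there are uncertain.

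The longest T run of these introns, CDK11A left out, written on the transcribed strand of GRCh37 in a window of 30 bases, is shown because hnRNPC binds such runs, and the run is in capitals. It stood at chr2:114686272-114686301 for ACTR3, chr17:74042541-74042570 for SRP68, chr3:155622075-155622104 for GMPS, chr5:137709110-137709139 for KDM3B, chr1:31733704-31733733 for SNRNP40 and chr12:76848503-76848532 for OSBPL8. In BRD8 a run of 30 fills the window (chr5:137508355-137508384), which is not printed. The runs of GMPS, BRD8, KDM3B, SNRNP40 and OSBPL8 lay within 300 bases of an antisense Alu-like stretch, and those of ACTR3 and SRP68 did not. The windows of 3 lower introns are given beside them, SAV1 (chr14:51113399-51113428) with a run of 21 within 300 bases of an antisense Alu-like stretch, and TMEM135 (chr11:87034274-87034303) and MLC1 (chr22:50523538-50523567) with longest runs of 7 and 5 and no such stretch.
ACTR3: tccaataaaTTTTTTTTTTTTaccaaaaca
SRP68: ttttgTTTTTTTTTTTTTTTTTTTccactg
GMPS: ttctttttcTTTTTTTTTTTTcgagacgga
KDM3B: acctttaaagTTTTTTTTTcaattatggag
SNRNP40: agatacTTTTTTTTTTTTTTTTTgagacag
OSBPL8: agttaccTTTTTTTTTTTTTTTTaattttt
SAV1: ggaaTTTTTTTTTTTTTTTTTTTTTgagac
TMEM135: aattgcagtcaTTTTTTTaaattttatgta
MLC1: gtccgTTTTTctaggaaagttatttctttt

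Such features were then counted over all 19435 introns inside 1 tested gene. Introns with Alu-like sequence only in antisense were called higher in 230 of 2828 cases (8.13%), those with both orientations in 366 of 8636 (4.24%), those with none in 69 of 5934 (1.16%) and those with sense Alu-like sequence only in 24 of 2037 (1.18%). Within introns of 1 to 3 kb, where length differs less, the shares were 10.97%, 2.24%, 1.95% and 1.26% in the same order. Alu-like sequence was defined as a blastn match to 7SL RNA, from which Alu elements derive, so that other repeats were not counted.

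**Figure D2:**
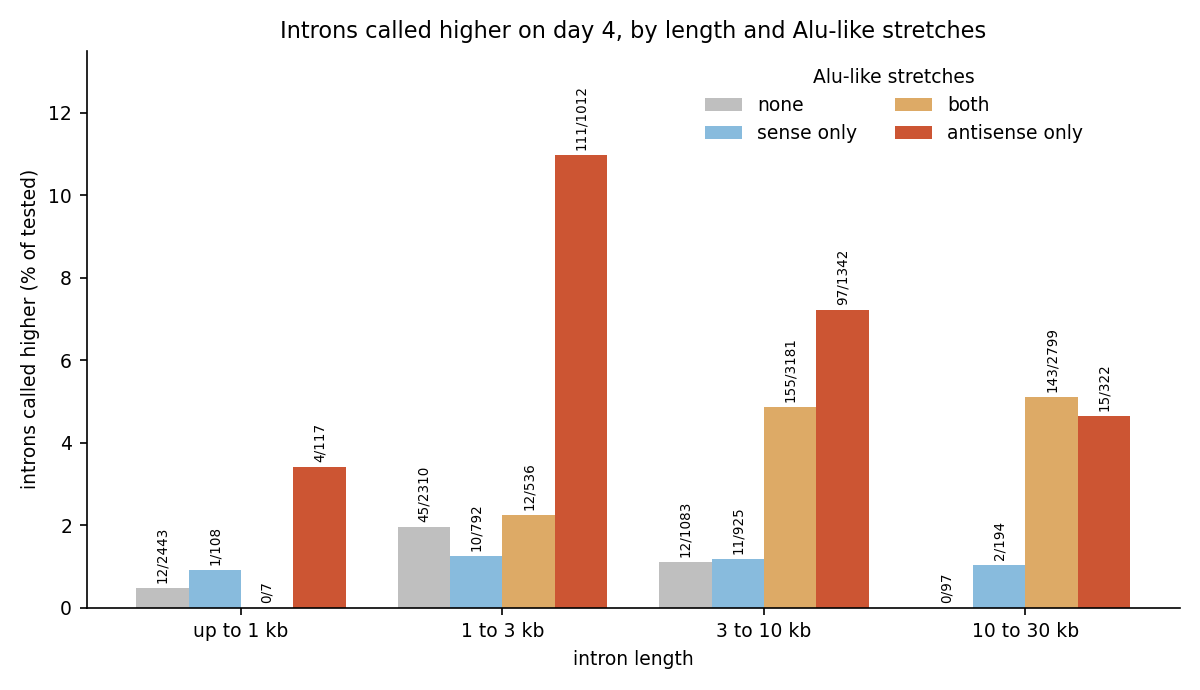
Percentage of tested introns called higher on day 4 (vertical axis) by the orientation of their Alu-like sequence relative to the gene, in classes of intron length up to 30 kb, with the number of introns over each bar. In introns of 1 to 3 kb, 10.97% of those with antisense Alu-like sequence only were called higher and 1.26% of those with sense only.

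The share of higher introns also differed with the length of the T run. The share called higher was 0.970% where the longest T run was under 9 bases, 2.505% for 9 to 14, 5.77% for 15 to 19, 5.91% for 20 to 24 and 5.999% for 25 or more. Within introns of 1 to 3 kb these shares were 1.26%, 3.84%, 12.2%, 12.6% and 10.4%. The same classes of the longest A run, which on the other strand would be the T run, gave 3.12%, 4.21%, 3.98%, 3.36% and 3.46%. Of the higher introns 90.9% held a T run of at least 9 bases, against 66.6% of all, and 86.5% held antisense Alu-like sequence, against 59.0%. Sense Alu-like sequence was present in 56.6% of the higher introns and 54.9% of all. Among the 94 lower introns inside 1 tested gene the share with such a T run was 40.4% and with antisense Alu-like sequence 30.9%. Longer introns hold more of either feature, and lower introns had a median length of 1753 bases against 5465 for the higher.

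Whether an intron rose beyond its own gene was tested with the exon count of the host as an offset. Relative to the host, 926 introns were higher (4.76% of 19435) and 36 lower (0.185%), and 526 of the 689 introns called higher on their own were among the 926. The host genes of the higher introns had a median log2 fold change of 0.05, and those of the lower introns of -0.90, with 34 of the 94 lower introns in called lower genes. Of the lower introns 15 were lower relative to the host.

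**Figure D3:**
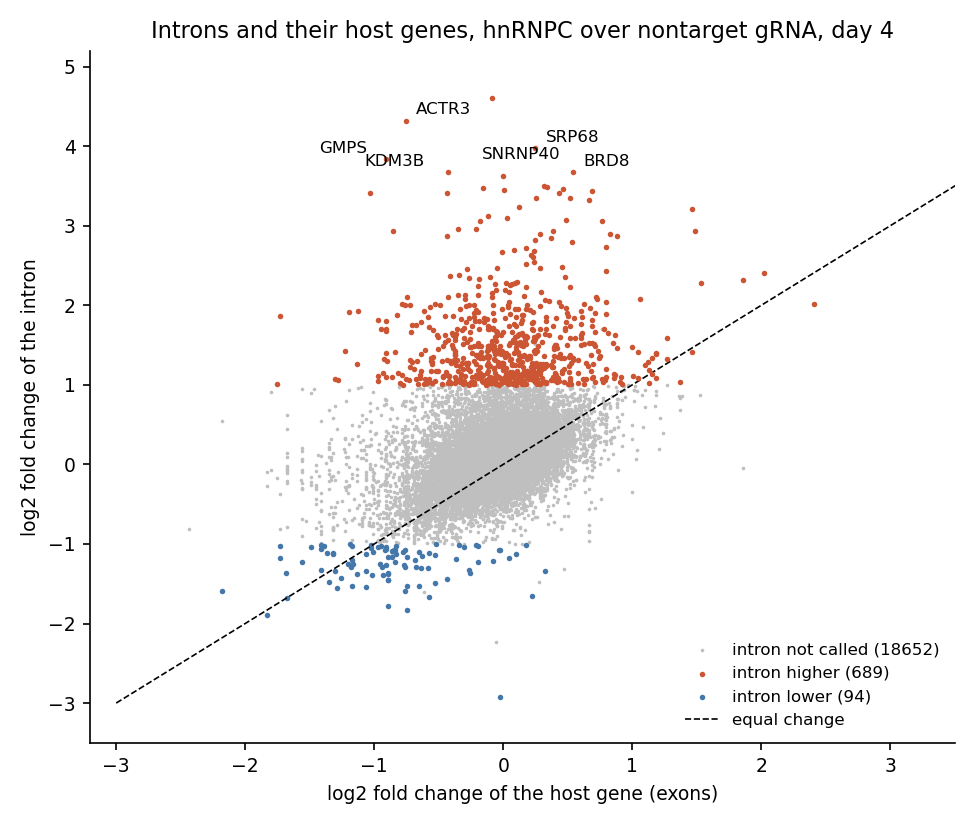
Log2 fold change of each tested intron on day 4 (vertical axis) against that of its host gene's exons (horizontal axis), for introns inside 1 tested gene, with called higher and lower introns coloured and some of the named introns labelled. Higher introns spread along the line of no gene change, with a median host change of 0.05, and lower introns lie to its left, with a median of -0.90.

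Called genes with a tested intron differed by direction in how often an intron was higher. Of the 35 higher genes that had a tested intron, 19 (54.3%) had a higher one, beside 9.01% of such genes that were not called. Of the 88 lower genes with a tested intron 9 (10.2%) had one, close to the share of genes not called. The lower genes with a higher intron included NUP133, a nucleoporin, at -1.03 with an intron at 3.41, MRPL1, a mitochondrial ribosomal protein, at -1.12 with 1.93, PDCD11, a ribosome biogenesis factor, at -1.19 with 1.92, and SETDB1, a histone methyltransferase, at -1.13 with 1.26. These 4 were named after their values were seen. In all, 175 higher and 127 lower genes had no tested intron.

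The lower introns were of different kinds. An intron of TMEM135 (chr11:87033393-87034800, plus strand) fell with its gene, at -1.89 beside -1.83, and had a change of -0.06 relative to it. An intron of MLC1 (chr22:50523391-50523567, minus strand) was at 4.499, 5.36 and 4.97 CPM in the controls and 1.13, 1.58 and 1.48 CPM with hnRNPC gRNA (-1.83, SE 0.155), beyond the -0.74 of its gene. An interval of GPI (chr19:34891234-34895288) had -1.81 (SE 0.119). An intron of SAV1 (chr14:51111733-51131896, minus strand) was at 67.2, 24.6 and 55.6 CPM in the controls against 10.4, 5.49 and 3.53 CPM (-2.92, SE 0.824), with its exons at -0.02. The controls of SAV1 differed widely among themselves, its change on day 3 was 1.55, and its call was lost without hnRNPC replicate 3 (adjusted p = 0.0604 by the quasi-likelihood test of edgeR, Benjamini-Hochberg adjusted).

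ECRs are stretches around clusters of edited sites. Of 2528 tested, 142 were called higher (5.62%) and 32 lower (1.27%). The filter behind these counts took expression relative to all ECR reads, and taken relative to all gene reads, with the same cutoff, it kept fewer ECRs, of which 2 were higher and 7 lower. Intergenic ECRs were higher in 16.9% of 130 cases, ECRs in introns only in 11.4% of 456, ECRs touching another exon in 5.61% of 802 and ECRs touching a 3′ UTR in 2.02% of 1140. Of the 142, 63 overlapped a higher intron and so hold some of the same reads. Of the 32 ECRs that fell, 18 touched a 3′ UTR and 8 another exon, beside 1140 and 802 of all 2528 tested. Their host genes had a median log2 fold change of -1.03, with 13 of 24 hosts called lower.

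The highest named ECR lies in BRD8 (chr5:137507963-137512562), inside the intron described above. It counts among the ECRs touching a 3′ UTR, since any overlap sufficed and 0.478% of its length overlapped an annotated one. It was at 1.27, 0.749 and 0.721 CPM in the controls and 17.4, 11.98 and 13.8 CPM with hnRNPC gRNA (log2 fold change 3.99, SE 0.297). An ECR in RCN3 (chr19:50033354-50036954) had 2.97, an intergenic one (chr16:18781831-18788703) 2.84, one in TMEM116 (chr12:112438202-112440256) 2.79, one in GPAA1 2.72, one in CASP8AP2 (chr6:90541611-90545409) 2.65, one in the DNA repair gene RAD51C (chr17:56805643-56808162) 2.65 and one in MIGA1 (chr1:78254095-78257808) 2.42. Among the lowest were those in GMPS (chr3:155658901-155661965) at -1.86, NCLN (chr19:3205632-3207714) at -1.81 and GOLGA3 (chr12:133346447-133348502) at -1.54. GMPS thus held a higher intron and a lower ECR, the latter at its 3′ UTR.

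Editing was measured as the percentage of reads with G at 467591 listed A-to-I sites. Over all sites it was 4.24%, 4.57% and 4.61% in the controls and 4.63%, 5.12% and 5.34% in the hnRNPC libraries, which did not overlap, although hnRNPC replicate 1 was close to control replicate 3. The means were 4.47% ± 0.200 and 5.03% ± 0.362 (SD, n = 3; exact two-sided permutation test p = 0.1, the smallest that 3 against 3 allows). At the 156907 sites with at least 10 reads in each library the means were 4.45% and 4.81% (exact permutation p = 0.3). There replicates 1 to 3 were at 4.24%, 4.56% and 4.56% in the controls and 4.46%, 4.88% and 5.11% with hnRNPC gRNA, so that each hnRNPC library was above the control of its own number. For control replicate 1 the Wilson 95% interval over all sites was 4.23% to 4.26%, and such intervals cover counting error only.

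Within the higher ECRs editing was 4.78%, 5.12% and 5.38% in the controls and 6.30%, 6.68% and 7.10% with hnRNPC gRNA, with means of 5.09% ± 0.3004 and 6.69% ± 0.400 (SD, n = 3; exact permutation p = 0.1). The difference of 1.60 percentage points was 0.568 at sites with at least 10 reads in each library. The study kept a site that passed cutoffs of coverage and editing in some of its samples, those with hnRNPC gRNA included. Sites of ECRs low in the controls may thus have entered through the hnRNPC libraries, and the part of this in the difference was not tested. In the lower ECRs the means were 5.82% and 6.66%, and in ECRs not called 5.55% and 6.11%. Editing was above all 3 controls in all 3 hnRNPC libraries in 536 of 2433 ECRs with enough reads (22%) and below in 76 (3.12%); it was above in 48 of the 128 higher (37.5%), 8 of the 28 lower and 480 of the 2277 other ECRs (21.1%), and below in 8, 2 and 66 of them. BRD8 was an example, with 2.56%, 4.84% and 2.16% of reads edited in the controls and 9.93%, 11.3% and 11.8% with hnRNPC gRNA. Its sites held 663, 351 and 231 reads in the controls and 7309, 4666 and 5678 with hnRNPC gRNA.

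The same comparison was read on days 3 and 5, each with its own controls. On day 3, 73 genes were higher (0.553%) and 64 lower (0.485%), 543 introns higher (2.49%) and 30 lower (0.138%), and 121 ECRs higher (4.79%) and 11 lower (0.435%). On day 5, 525 genes were higher (3.98%) and 493 lower (3.74%), 873 introns higher (4%) and 513 lower (2.35%), and 126 ECRs higher (4.98%) and 109 lower (4.31%). The counts of genes grew more from day 3 to day 4 than those of higher introns and higher ECRs, a difference that was not tested.

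The members called on day 4 had the same direction on the other days with few exceptions. Of the 210 higher genes, 208 were above 0 on day 3 and 59 were called, and 210 were above 0 on day 5 and 170 called, where 42.1% and 47.5% of all genes were above 0. Of the 215 lower genes, 213 were below 0 on day 3 with 59 called, and 201 on day 5 with 142 called and 1 called in the opposite direction. Of the 778 higher introns, 777 were above 0 on day 3 with 502 called, and 777 on day 5 with 569 called, beside 68.1% and 44.4% of all introns. Of the 142 higher ECRs all were above 0 on both days, with 109 called on day 3 and 99 on day 5. The lower introns were below 0 in 109 of 110 cases on day 3, with 25 called, and in 100 on day 5, with 82 called.

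**Figure D4:**
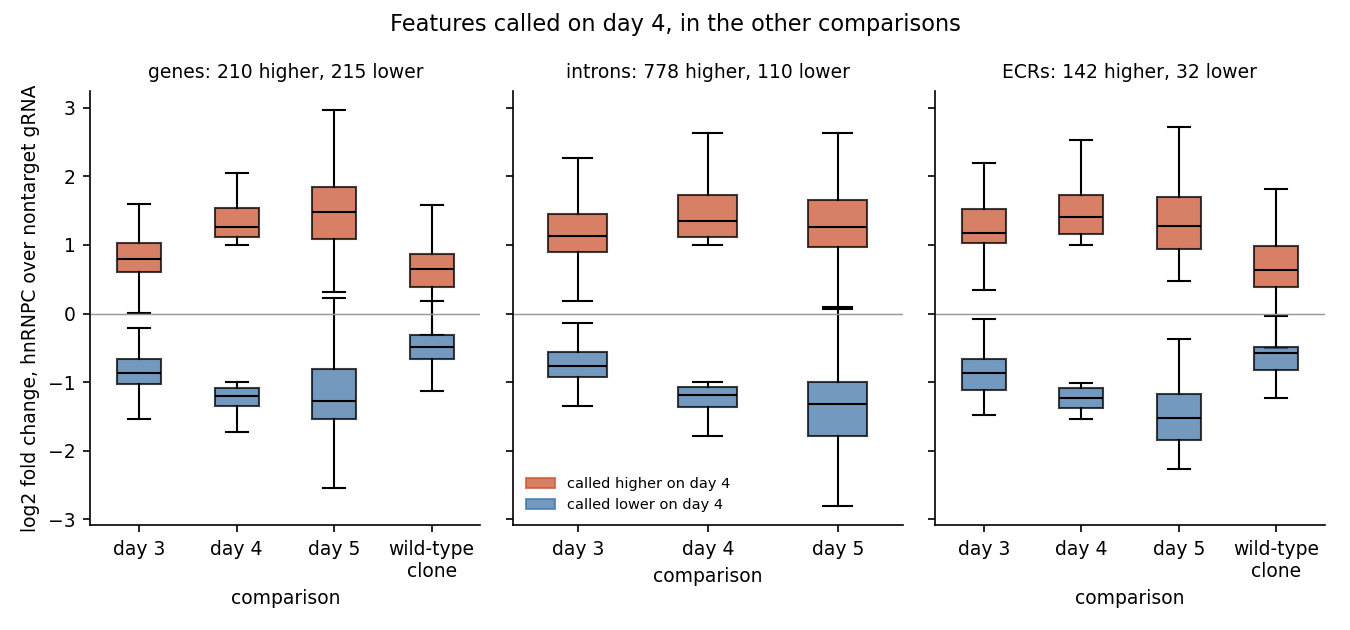
Log2 fold change (hnRNPC gRNA minus nontarget gRNA of the same day) on days 3, 4 and 5 for the genes, introns and ECRs called on day 4, with boxes for the quartiles, a line for the median and whiskers to 1.5 times the interquartile range. Day 4 chose the members, and the medians of the higher genes were 0.80 on day 3 and 1.48 on day 5 while those of the higher introns were 1.13 and 1.26.

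The difference between days was tested directly. Between days 4 and 3 it passed in 7 genes (0.0531%), 14 with the replicate number as a block, in 0 introns (0%; by edgeR, 0 by limma-voom, with 837 introns at an unadjusted p under 0.05) and in 2 ECRs (0.0791%). All but 1 of the 7 genes were called higher on day 4: IL21R with a day difference of 1.505, PCDH12 with 1.28, ROM1 with 1.15, the metalloproteinase MMP19 with 1.14, PHLDA3 with 1.03 and the growth factor HBEGF with 1.02, the pseudogene HMGN1P38 being lower at -1.34. ROM1, MMP19, HBEGF and HMGN1P38 were named after their values were seen. PHLDA3 was at 0.012 on day 3, 1.05 on day 4 and 2.26 on day 5.

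Between days 5 and 4 the difference passed in 245 genes (1.86%), 125 introns (0.573%) and 17 ECRs (0.672%). Of the 245 genes, 5 were called higher and 17 lower on day 4. The 5 were CYP1B1, a cytochrome P450, IL4I1, an amino acid oxidase of myeloid cells, IFITM10, PHLDA3 and TNFRSF14-AS1, with differences from 1.08 to 2.12, and they were higher still on day 5. All 17 lower genes had a higher log2 fold change on day 5 than on day 4, and most of them were then above 0. Among them MGAT2, an enzyme of N-glycan synthesis, went from -1.28 to 1.60 and CEBPA from -1.20 to 0.73. The nuclease gene ENDOG went from -1.13 to 0.77 and the telomerase RNA TERC from -1.12 to 0.41. Those 17 had a median transcript GC content of 66.7%, and 194 of the 245 genes had 60% or more. In that class the median change went from -0.26 on day 3 to -0.22 on day 4 and 0.35 on day 5, and with the GC offset 35 genes differed in place of 245. Of the 16 lower genes with a GC value among the 17, 4 were still called lower on day 4 and 5 still differed between days 5 and 4 with that offset.

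In the wild-type clone of the second study, with another hnRNPC gRNA, other controls and 2 libraries per group on day 4, HNRNPC fell by 0.69. There 38 genes were higher (0.278%) and 62 lower (0.454%), and 38 ECRs were higher (1.54%) and 18 lower (0.729%); with its 4 total RNA libraries alone in the fit, 3 genes were higher and 3 lower. Of the 183 higher genes of the STING-deficient clone that were tested there, 174 (95.1%) were above 0, with a median of 0.65 and 28 called, where 55.4% of all genes were above 0. Of 205 lower genes, 193 (94.1%) were below 0, with a median of -0.49 and 6 called. ANKDD1A was at 1.47, TLCD3B at 1.64, PRMT3 at -1.08, TMEM135 at -1.03 and CDKN1A at 0.52. BTG2 was at -0.10 and EGR1 at -0.36, against the direction of the STING-deficient clone. Of 130 higher ECRs found there, 125 were above 0 and 32 called, and all 31 lower ECRs found there were below 0, with 2 called.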

How the data were processed

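Total RNA of nucleofected THP-1 cells was depleted of ribosomal RNA and sequenced from TruSeq Stranded libraries. The authors aligned reads with STAR 2.5.4a to GRCh37 and deposited counts of uniquely mapped reads made with featureCounts: per gene over GENCODE 19 exons, per intron (gene interval minus exons), per ECR (clusters of at least 5 editing sites up to 50 bases apart, extended by 1000 bases and merged) and, per editing site, counts of all reads and of reads with G. No strand setting of the counting is used here, so reads of overlapping genes cannot be told apart.

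Counts were analysed as deposited with edgeR 4.0.16 in R 4.3.3, in a quasi-likelihood fit of all 48 libraries of the first study with 1 coefficient per group and library sizes of gene totals times TMM factors. Features with an average log2 CPM under 0.5 (genes), 1 (introns) or 4.5 (ECRs, here relative to ECR totals, since the total is not given in the sources used here) were left out, which kept 13193 of 57820 genes, 21798 of 197626 introns and 2528 of 2875 ECRs. All adjusted p-values are Benjamini-Hochberg values over all features tested, and SE is the standard error of the log2 fold change. The wild-type clone was fitted apart over its 18 libraries. Percentages of edited reads were compared by exact two-sided permutation tests over libraries.

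Named genes were HNRNPC, the 10 highest and 10 lowest called genes with no overlap of libraries and at least 5 CPM in the higher group, up to 4 called members of each list (or the 2 most abundant where none was called) and ADAR, RALY, IFIH1 and RIGI. Named introns and ECRs were the 8 highest and 4 lowest by the same rule, from 2 and 5 CPM. Other names were chosen after their values were seen. Some genes and regions that the rule names are not reported here. The members, lists and tests were chosen with earlier results of these data known.

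Replicate numbers pair the samples, since the triplicates were independent experiments: deviations of same-numbered libraries from their group means correlated at 0.16 to 0.40 over genes, 0.30 to 0.59 over introns and 0.38 to 0.69 over ECRs. No pair of libraries was alike within sampling noise (chi-square per gene of 28.9 or more). Annotation came from GENCODE 44 on GRCh37, which held 12942 of the 13193 genes tested, Alu-like sequence from blastn matches of at least 60 bases to 7SL RNA at an E-value of 1e-05, and gRNA sequences from the study's supplement. The fit was tested on simulated data. Alternatives were limma-voom, DESeq2, no filter, the 6 libraries alone, GFP gRNA as the control, the replicate block, leaving out each library and, added after the data were seen, a GC content offset.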

Additional observations from a re-analysis of the deposited data

Results flagged for a closer look

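Among the named genes, 4 had a change that differed between days by at least 1 on the log2 scale in a test of the difference itself, by the quasi-likelihood test of edgeR, Benjamini-Hochberg adjusted over all 13193 genes. For IL21R the log2 fold change on day 4 exceeded that on day 3 by 1.505 (adjusted p = 0.000630): the level in the controls was 3.63, 3.29 and 4.83 CPM on day 3 and 1.78, 1.38 and 2.08 CPM on day 4, and the level with hnRNPC gRNA was 5.85, 6.33 and 6.88 CPM on day 3 and 6.48, 8.14 and 9.43 CPM on day 4. The larger change on day 4 thus came with lower controls as well as higher hnRNPC libraries. For PCDH12 the excess of day 4 over day 3 was 1.28 (adjusted p = 0.0197), with controls at 3.85, 4.29 and 4.32 CPM on day 3 and 3.59, 2.92 and 3.46 CPM on day 4 and hnRNPC libraries at 6.19, 6.81 and 8.13 CPM and 12.7, 12.9 and 15.5 CPM.

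For PHLDA3 the change on day 4 exceeded that on day 3 by 1.03 (adjusted p = 0.0193), and the change on day 5 exceeded that on day 4 by 1.21 (adjusted p = 0.000264). Its hnRNPC libraries were at 2.18, 1.63 and 1.72 CPM on day 3, 3.75, 3.93 and 3.94 CPM on day 4 and 9.85, 6.86 and 7.84 CPM on day 5, while its controls stayed between 1.52 and 2.06 CPM over the 3 days. H2AC25 was lower by 2.23 on day 4 and by 0.61 on day 5 on the log2 scale, a difference of 1.62 (adjusted p = 0.000632).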

How the results depend on the processing

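Without the filter on low counts the day 4 comparison called 1027 genes higher and 467 lower and 2820 introns higher and 972 lower. Leaving out 1 library in turn gave 196 to 230 higher and 187 to 251 lower genes, 620 to 997 higher and 92 to 178 lower introns (178 without hnRNPC replicate 1), 119 to 169 higher and 26 to 38 lower ECRs, and 703 to 1199 introns higher and 31 to 51 lower relative to their gene. With the ECR filter on gene totals, which keeps fewer ECRs, 2 were higher and 7 lower. By limma-voom 15 genes and 1 ECR differed between days 4 and 3 and 11 ECRs were lower in the wild-type clone, and limma on log2 ratios called 19 introns lower relative to their gene. With its 4 total RNA libraries alone the wild-type clone gave 3 higher and 3 lower genes and 5 lower ECRs. With the replicate number as a block, 211 genes were higher and 216 lower and 14 differed between days 4 and 3 (7 without the block), and the block changed no other count by over 1.5 times. With the GC content offset, chosen after seeing the data, 35 genes differed between days 5 and 4, and with the block as well 38 did and 18 differed between days 4 and 3. The cause of these shifts was not tested.

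Over all alternatives, the log2 fold changes of named genes kept direction and call in 704 cases, lost the call in 26 and turned sign in 11, all in genes near 0: with GFP gRNA as the control SMG5 (-0.033), ADAR (-0.00019), TOP2A (0.0097) and LYZ (-0.34), with the GC content offset CENPF (-0.0085), and on leaving out single libraries ADAR (-0.034 to 0.077), CENPF (-0.079 to 0.16) and LYZ (-0.027 to 0.18). Named introns kept direction and call in 155 cases and lost the call in 1, and named ECRs kept both in 157. Depth limits genes of few reads, such as IFI27 with 17 to 68 counts per library.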

Other observations

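Classes of RNA beyond those described above were small. Of 26 transcribed unitary pseudogenes tested, 3 (11.5%) were called higher on day 4 and none lower, of 143 transcribed unprocessed pseudogenes 4 (2.80%) higher and 1 (0.699%) lower, and of 265 processed pseudogenes 5 (1.89%) each way, by edgeR's quasi-likelihood test. Processed pseudogenes share sequence with their parent genes, so their unique reads come from the stretches that differ.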
